A study of Caenorhabditis elegans with 12 samples.

Results

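The 8 genes described here are the paralogs of mitochondrial ATP synthase subunit b (asb-1, asb-2), of subunit g (asg-1, asg-2) and of the ADP/ATP carrier (ant-1.1, ant-1.2, ant-1.3, ant-1.4) of the nematode Caenorhabditis elegans. They were taken by gene name from a table of 46987 features, and all 8 passed the low-count filter that left 16665 genes for testing. The members were chosen by gene family with the measured values of the comparison of 10000 ng/g with control known, in which asb-1 was the member past the threshold. Values of the members in that comparison, and the count of members past the threshold there, are therefore a description, with no p and no reading of the count. Tests are given for 400 and 2000 ng/g against control and for 2000 against 400 ng/g.

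RNA with poly(A) tails came from whole worms of the Bristol N2 strain at the L4 stage, the last larval stage, in 12 libraries of approximately 1000 animals each. Eggs had been placed on agar with AO168=O, an organophosphate formed by oxidation of a phosphite antioxidant of plastics, and larvae grew there for approximately 46 h on E. coli OP50 at 25 °C. The 4 groups of 3 libraries were the control without the compound and the doses of 400, 2000 and 10000 ng per g of agar. Agar of every group, the control included, held 0.01% ethanol, and the labels place all libraries in batch 1. The series calls the replicates independent, and says nothing of which plates the worms of a library shared.

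ATP synthase makes ATP with the proton gradient across the inner mitochondrial membrane. Subunit b belongs to the stalk that holds the catalytic head in place, and subunit g is a small membrane subunit of the Fo part, in yeast known for its place where complexes dimerise. The ADP/ATP carriers exchange the ATP made in the matrix for cytosolic ADP. In C. elegans asb-1 is known as the subunit b isoform of the germ line, asb-2 as the other isoform, and ant-1.1 as the broadly expressed main carrier.

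The genes lie on 4 of the chromosomes, in coordinates of the WBcel235 assembly. The gene asb-1 (WBGene00000206) lies on chromosome III from 4594543 to 4595821 on the minus strand with 5 exons, and asb-2 (WBGene00000207) on chromosome X from 4469766 to 4471476 on the plus strand with 5 exons. The gene asg-1 (WBGene00000209) lies on chromosome I from 8692946 to 8693468 on the plus strand with 2 exons, and asg-2 (WBGene00000210) on chromosome X from 6841258 to 6842121 on the plus strand with 4 exons. In both ATP synthase pairs the more abundant copy is thus the one on chromosome X, which holds 14.1% of the genes tested. The carrier ant-1.1 (WBGene00006439) lies on chromosome III from 13463163 to 13464652 on the plus strand with 4 exons. The other carriers lie on the minus strand: ant-1.2 (WBGene00007057) on chromosome I from 6730057 to 6730959 with a single exon, ant-1.3 (WBGene00010485) on chromosome IV from 9708168 to 9709305 with 3 exons, and ant-1.4 (WBGene00020140) on chromosome IV from 8459178 to 8460308 with 3 exons.

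Reads of 2 kinds cannot be assigned with certainty. The gene asg-1 overlaps K07A12.5 on the opposite strand, which had 47 to 277 counts per library against 2863 to 4340 for asg-1, and the strand setting of the counting is not given in the sources used here. ADP/ATP carriers are alike in sequence, and how reads with several matches were treated is not given either.

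Total counts ran from 36897811 to 47211800 per library. The 3 libraries at 400 ng/g were spread widely for asb-2, asg-1 and asg-2, with replicate 1 lowest and replicate 2 highest for each, so values at that dose are also given without either. Levels are given as deposited FPKM, the fragments per length of gene and size of library, which compare genes of different length.

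The most abundant of the 8 mRNAs was ant-1.1, with a mean of 4313 FPKM over the 12 libraries. It was followed by asb-2 at 604.6, asg-2 at 476.2, asg-1 at 180.6 and asb-1 at 114.4 FPKM. The remaining carriers were at 45.2 (ant-1.3), 35.9 (ant-1.4) and 0.165 FPKM (ant-1.2). This order of group means was the same in all 4 groups. Libraries of asb-2 and asg-2 overlapped in the control and at 400 ng/g, and libraries of ant-1.3 and ant-1.4 overlapped in all 4 groups. Within each library, however, asb-2 was above asg-2 and ant-1.3 above ant-1.4 in all 12. No other neighbours in the order overlapped in any group.

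**Figure D1:**
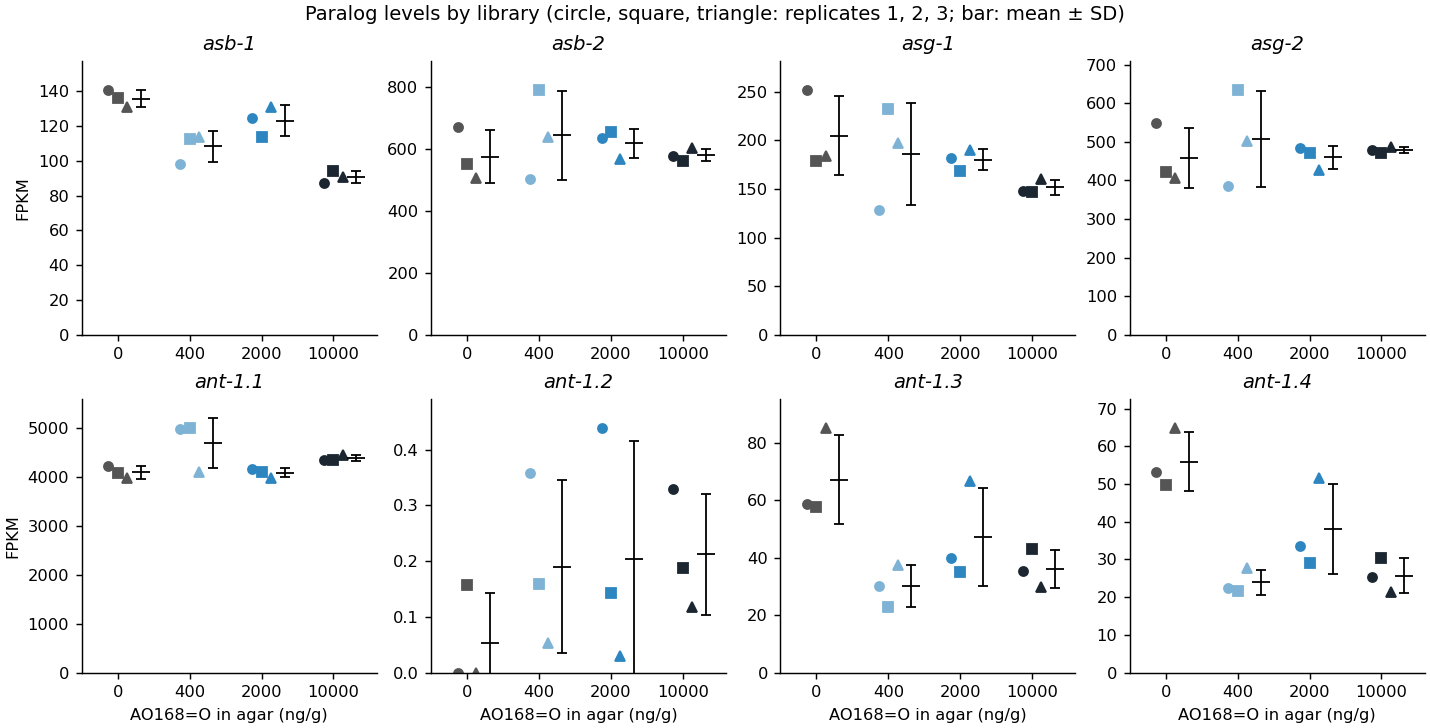
Deposited FPKM (y axis, linear, from 0) of each of the 8 genes in the 12 libraries, by dose of AO168=O in ng per g of agar (x axis, evenly spaced and not to scale); symbols are replicates 1, 2 and 3 and bars the mean ± SD of 3 libraries. All exposed libraries at 400 and 10000 ng/g lie below all controls for asb-1, ant-1.3 and ant-1.4, while asb-2 and asg-2 at every dose overlap the controls.

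At 400 ng/g, asb-1, ant-1.3 and ant-1.4 lay below control in all 3 libraries, but no member passed the edgeR threshold (adjusted p of 0.05 over 16665 genes). Of the 8 members, 3 had all exposed libraries below all controls and 0 had them above, where 12.2% of all genes tested were below and 8.19% above. The edgeR test called 0 genes in all, which is 0% of those tested, but 660 without replicate 3 at 400 ng/g and 903 without replicate 3 at 2000 ng/g. In the fit of all libraries 3 members and 3084 genes (18.5%) had an unadjusted p under 0.05. DESeq2 called 3 of the members, asb-1, ant-1.3 and ant-1.4, all lower, and 1553 genes or 8.89% of those with an adjusted p, most of them lower (7.5%). At 2000 ng/g, 1 of 8 members, asb-1, had exposed libraries all below control, against 5.47% of all genes, and 0 had them above, against 6.04%. The edgeR test again called 0 members and 0% of genes, with 1 member (ant-1.4) and 859 genes (5.15%) at an unadjusted p under 0.05, while DESeq2 called 5 genes (0.0201%) and 0 members.

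Between 2000 and 400 ng/g, 1 of 8 members, ant-1.4, had all libraries at 2000 ng/g above all those at 400 ng/g, against 4.69% of all genes, and 0 had them below, against 6.26%. No gene passed with edgeR (0%), 2 members (ant-1.3 and ant-1.4) and 1543 genes (9.26%) had an unadjusted p under 0.05, and DESeq2 called 1 gene (0.00403%), which was no member. At 10000 ng/g against control, the comparison known when the list was made, 1 of 8 members was past the edgeR threshold, on the low side, and 0.252% of all genes were, 0.042% on that side. DESeq2 called 6.02% of all genes there. Without 1 library, the edgeR fit called between 4 and 523 genes at 10000 ng/g, against 42 with all, the highest without replicate 1 at 400 ng/g. In the same comparison, 4 members had all exposed libraries below control and 1 above, beside 18.3% and 16% of all genes. The 3 comparisons with control share the same control libraries.

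The germ-line subunit b gene asb-1 had 140.5, 136.2 and 130.7 FPKM in the control. It had 98.3, 112.8 and 113.8 FPKM at 400 ng/g, 124.4, 113.8 and 131.2 FPKM at 2000 ng/g, and 87.0, 94.0 and 90.7 FPKM at 10000 ng/g. The highest library at 400 ng/g was thus below the lowest control, while the highest at 2000 ng/g was above it. On the scale of TMM-scaled counts, by which groups were counted as overlapping or not, the highest library at 2000 ng/g had 134.7 CPM against 135.5 CPM in the lowest control and so lay just below it. The log2 fold change was -0.33 ± 0.095 (SE) at 400 ng/g (edgeR adjusted p = 0.0797) and -0.16 ± 0.095 at 2000 ng/g (edgeR adjusted p = 0.855). The value at 10000 ng/g was -0.59 ± 0.0953, a level of 93.2 ± 4.22 CPM against 140.2 ± 4.66 CPM in control worms (CPM, counts scaled to library size, SD, n = 3). In the 12 fits that left out 1 library, it lay between -0.62 and -0.54 at 10000 ng/g and between -0.36 and -0.26 at 400 ng/g. At 2000 ng/g it was -0.10 without replicate 2 of that dose.

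The other subunit b gene, asb-2, had 669.8, 550.2 and 505.5 FPKM in the control. It had 503.7, 789.3 and 639.2 FPKM at 400 ng/g, 635.4, 654.1 and 566.4 FPKM at 2000 ng/g, and 578.0, 561.2 and 602.4 FPKM at 10000 ng/g. Exposed and control libraries overlapped at every dose, and the spread was widest at 400 ng/g, where replicate 1 was the lowest of all 12 libraries and replicate 2 the highest. The log2 fold changes were 0.17 ± 0.161 at 400 ng/g (edgeR adjusted p = 0.655), 0.09 ± 0.161 at 2000 ng/g (edgeR adjusted p = 0.952) and 0.01 ± 0.161 at 10000 ng/g. At 400 ng/g the value was 0.31 without replicate 1 of that dose (edgeR adjusted p = 0.175) and 0.0031 without replicate 2 (edgeR adjusted p = 0.996). It was 0.29 without replicate 1 of the control and 0.08 without replicate 3 of the control. The 2 subunit b genes together amounted to 711.0 ± 89.7 FPKM in the control, 752.3 ± 150.0 at 400 ng/g, 741.8 ± 38.4 at 2000 ng/g and 671.1 ± 19.6 (SD, n = 3) at 10000 ng/g.

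Within a library, asb-1 made up 19.2% ± 1.68 of subunit b FPKM in the control, 14.6% ± 1.95 at 400 ng/g, 16.7% ± 2.01 at 2000 ng/g and 13.5% ± 0.73 (SD, n = 3) at 10000 ng/g. The ratio of the 2 counts within a library does not depend on library size or scaling factors. The log2 ratio of asb-1 to asb-2 averaged -2.75 at 400 ng/g and -2.28 in the control, a difference of -0.48 ± 0.162 (SE). All 3 libraries at 400 ng/g lay below all 3 controls, for which the exact two-sided permutation test gives p = 0.1, the smallest p it can give with 3 against 3 libraries (adjusted p = 0.25 over 10 comparisons of pairs). The difference was -0.58 without replicate 1 at 400 ng/g, -0.35 without replicate 2, and between those values without any other library of the 2 groups. At 2000 ng/g the mean was -2.53 against -2.28 in the control, a difference of -0.26 ± 0.151, the groups overlapped, and the exact permutation p was 0.2 (adjusted p = 0.3). Replicate numbers, which come from the titles, were taken as pairs for these 2 groups on weak correlations in the same data (0.14, 0.145 and 0.339). Within these pairs the differences were -0.10, -0.51 and -0.16, all negative. An exact two-sided sign-flip test over 3 pairs gave p = 0.25, the smallest it can give (adjusted p = 0.312 over the 5 pairs of paralogs). Without replicate 2 at 2000 ng/g the difference between group means was -0.16. The mean at 10000 ng/g was -2.88 against -2.28 in the control, a difference of -0.61 ± 0.105 with no overlap.

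The subunit g gene asg-1 had 251.3, 179.0 and 183.6 FPKM in the control. It had 128.5, 232.0 and 197.6 FPKM at 400 ng/g, 181.5, 168.4 and 190.4 FPKM at 2000 ng/g, and 147.4, 146.8 and 160.4 FPKM at 10000 ng/g. Libraries overlapped the control at 400 and 2000 ng/g, and at 10000 ng/g all 3 were below it. The log2 fold changes were -0.13 ± 0.191 at 400 ng/g (edgeR adjusted p = 0.775), -0.20 ± 0.191 at 2000 ng/g (edgeR adjusted p = 0.889) and -0.44 ± 0.191 at 10000 ng/g. The value at 400 ng/g was 0.07 without replicate 1 of that dose and -0.32 without replicate 2. Replicate 1 of the control was the highest of all 12 libraries, and without it the values were 0.04 at 400 ng/g, -0.005 at 2000 ng/g and -0.24 at 10000 ng/g. Without replicate 2 or 3 of the control the value at 400 ng/g was -0.22 or -0.21.

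Its paralog asg-2 had 547.7, 422.4 and 405.0 FPKM in the control. It had 386.1, 633.2 and 502.2 FPKM at 400 ng/g, 484.0, 470.3 and 426.7 FPKM at 2000 ng/g, and 478.3, 472.2 and 486.1 FPKM at 10000 ng/g. All doses overlapped the control, and as for asb-2 the lowest and the highest of the 12 libraries were replicates 1 and 2 at 400 ng/g. The log2 fold changes were 0.15 ± 0.168 at 400 ng/g (edgeR adjusted p = 0.708), -0.01 ± 0.168 at 2000 ng/g (edgeR adjusted p = 0.997) and 0.06 ± 0.168 at 10000 ng/g. The value at 400 ng/g was 0.31 without replicate 1 of that dose and -0.03 without replicate 2, and lay between 0.07 and 0.30 without a control library. At 2000 ng/g the sign turned under other scaling factors, with 0.01 under DESeq2 size factors.

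The share of asg-1 in subunit g FPKM was 30.8% ± 0.905 in the control, 26.7% ± 1.64 at 400 ng/g, 28.2% ± 2.37 at 2000 ng/g and 24.0% ± 0.681 (SD, n = 3) at 10000 ng/g. Although neither gene alone separated from the control at 400 ng/g, their ratio did. The log2 ratio of asg-1 to asg-2 averaged -1.52 at 400 ng/g and -1.23 in the control, a difference of -0.29 ± 0.0784 (SE) with no overlap (exact two-sided permutation p = 0.1, adjusted p = 0.25). Without 1 library of the 2 groups it lay between -0.35 and -0.23, with -0.23 without replicate 1 at 400 ng/g. At 2000 ng/g the difference was -0.19 ± 0.103 with overlap (exact permutation p = 0.2, adjusted p = 0.3), and at 10000 ng/g it was -0.49 ± 0.0471 with no overlap. Within the pairs of equal replicate number the differences at 2000 ng/g were -0.29, -0.24 and -0.02, for which the exact sign-flip test again gave p = 0.25 (adjusted p = 0.312). The difference at 2000 ng/g was -0.12 without replicate 2 of that dose and -0.28 without replicate 3. The summed FPKM of both genes was 663.0 ± 117.9 in the control, 693.2 ± 175.4 at 400 ng/g, 640.4 ± 24.3 at 2000 ng/g and 630.4 ± 14.3 at 10000 ng/g.

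**Figure D2:**
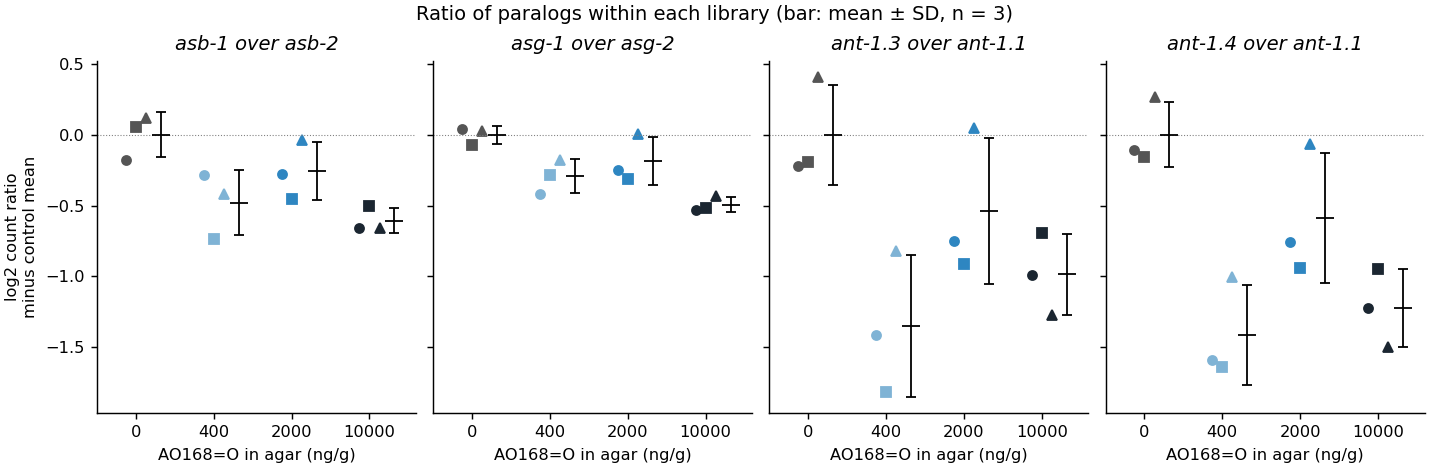
Log2 ratio of the counts of 2 paralogs within each library, minus the control mean (y axis), by dose of AO168=O in ng per g of agar (x axis, evenly spaced and not to scale), with symbols as replicates 1, 2 and 3 and bars as mean ± SD of 3 libraries. For all 4 pairs shown, every library at 400 and at 10000 ng/g lies below every control library, and at 2000 ng/g replicate 3 lies among the controls.

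The main carrier gene ant-1.1 had 4227, 4086 and 3971 FPKM in the control. It had 4984, 4991 and 4106 FPKM at 400 ng/g, 4167, 4103 and 3985 FPKM at 2000 ng/g, and 4349, 4339 and 4450 FPKM at 10000 ng/g. Of the libraries at 400 ng/g, 2 were the highest of all 12 and the other lay among the controls, and the libraries at 10000 ng/g were all above the controls. The log2 fold changes were 0.20 ± 0.127 at 400 ng/g (edgeR adjusted p = 0.455), -0.02 ± 0.126 at 2000 ng/g (edgeR adjusted p = 0.991) and 0.09 ± 0.126 at 10000 ng/g.

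The carrier gene ant-1.3 had 58.7, 57.8 and 85.0 FPKM in the control. It had 30.2, 22.9 and 37.6 FPKM at 400 ng/g, 40.1, 35.1 and 66.7 FPKM at 2000 ng/g, and 35.3, 43.2 and 29.8 FPKM at 10000 ng/g. All libraries at 400 and 10000 ng/g were below the lowest control, and at 2000 ng/g replicate 3 lay within the control range while replicates 1 and 2 lay below it. The log2 fold change was -1.15 ± 0.262 at 400 ng/g (edgeR adjusted p = 0.0523), -0.52 ± 0.259 at 2000 ng/g (edgeR adjusted p = 0.855) and -0.90 ± 0.26 at 10000 ng/g. Between 2000 and 400 ng/g it was 0.63 ± 0.26 (edgeR adjusted p = 0.524). Without replicate 3 at 2000 ng/g it was 0.30 between these doses and -0.86 at 2000 ng/g against control, where it was -0.34 without replicate 2 of that dose and -0.31 without replicate 3 of the control.

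The carrier gene ant-1.4 had 53.3, 49.8 and 64.7 FPKM in the control. It had 22.5, 21.8 and 27.8 FPKM at 400 ng/g, 33.5, 29.0 and 51.7 FPKM at 2000 ng/g, and 25.3, 30.5 and 21.4 FPKM at 10000 ng/g. As for ant-1.3, replicate 3 was the highest library of the control and of the 400 and 2000 ng/g groups, and the lowest at 10000 ng/g. The log2 fold change was -1.22 ± 0.211 at 400 ng/g (edgeR adjusted p = 0.0523), -0.57 ± 0.209 at 2000 ng/g (edgeR adjusted p = 0.855) and -1.12 ± 0.211 at 10000 ng/g. Between 2000 and 400 ng/g it was 0.65 ± 0.21 (edgeR adjusted p = 0.522). Without replicate 3 at 2000 ng/g it was 0.36 between these doses and -0.86 at 2000 ng/g against control.

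Whether ant-1.3 and ant-1.4 passed the threshold at 400 ng/g depended on the fit. The edgeR adjusted p of ant-1.3 was 0.0362 without replicate 3 at 400 ng/g and 0.028 without replicate 3 at 2000 ng/g, and that of ant-1.4 was 0.0329 and 0.0258. In the other 10 of the 12 fits without a library the adjusted p of both was between 0.0517 and 0.231. With no low-count filter the edgeR adjusted p was 0.0168 for each, with a replicate block it was 0.0416 for each, and with DESeq2 it was 0.000918 for ant-1.3 and 4.9e-05 for ant-1.4. The log2 fold change itself stayed between -1.33 and -0.95 for ant-1.3 and between -1.33 and -1.1 for ant-1.4 over the fits that left out a library.

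Relative to ant-1.1 in the same library, the log2 count ratio of ant-1.3 averaged -7.61 at 400 ng/g and -6.26 in the control, a difference of -1.35 ± 0.354 (SE) with no overlap (exact two-sided permutation p = 0.1, adjusted p = 0.25). For ant-1.4 the means were -7.94 at 400 ng/g and -6.53 in the control, a difference of -1.41 ± 0.243 with no overlap (exact two-sided permutation p = 0.1, adjusted p = 0.25). At 2000 ng/g the differences were -0.54 ± 0.361 for ant-1.3 and -0.59 ± 0.297 for ant-1.4, both with overlap (exact permutation p = 0.3 and adjusted p = 0.3 for each). Within the pairs of equal replicate number they were -0.53, -0.72 and -0.36 for ant-1.3 and -0.65, -0.78 and -0.33 for ant-1.4, with an exact sign-flip p of 0.25 for each (adjusted p = 0.312). The difference of ant-1.3 was -0.83 without replicate 3 at 2000 ng/g, -0.35 without replicate 2 and -0.33 without replicate 3 of the control. The values at 10000 ng/g were -0.99 ± 0.263 and -1.22 ± 0.206. Together the 4 carriers came to 4218 ± 111 FPKM in the control, 4748 ± 499.5 at 400 ng/g, 4171 ± 68.8 at 2000 ng/g and 4441 ± 51.6 at 10000 ng/g.

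Few reads fell on ant-1.2, with counts of 0, 6 and 0 in the control, 17, 5 and 2 at 400 ng/g, 15, 5 and 1 at 2000 ng/g, and 14, 7 and 4 at 10000 ng/g. The exposed libraries overlapped the control at every dose. The gene passed the low-count filter through the exposed libraries alone, so no p of it is given. Its ratio to ant-1.1 was still counted among the 10 comparisons and the 5 pairs over which the p of ratios were adjusted. Its fitted log2 fold changes, 1.76 at 400 ng/g and 1.81 at 2000 ng/g, depend on how the fit treats the counts of 0, and without 1 library the value at 400 ng/g ran from 0.86 to 5.86. Its ratio to ant-1.1 overlapped between groups at 400 and 2000 ng/g.

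Markers of several tissues were compared across the same libraries, since whole worms mix all of them and the tissue in which each copy is used cannot be read from such libraries. No list of markers had a gene at 0 in all libraries. As the mean log2 CPM over a list minus the control mean, the 39 sperm markers (37 of them tested) lay between -0.43 and 0.62 in the control, between -2.36 and -1.02 at 400 ng/g, between -1.45 and -0.16 at 2000 ng/g and between -1.69 and -0.79 at 10000 ng/g. The 30 germ-line markers lay between -0.19 and 0.21 in the control, between -0.57 and -0.27 at 400 ng/g, between -0.38 and 0.05 at 2000 ng/g and between -0.49 and -0.27 at 10000 ng/g. The 17 oocyte markers lay between -0.18 and 0.35 in the control, between -1.19 and -0.41 at 400 ng/g, between -0.81 and 0.21 at 2000 ng/g and between -1.13 and -0.58 at 10000 ng/g. The mean over each of the sperm, germ-line and oocyte lists was thus below control in every library at 400 and 10000 ng/g. All libraries of asb-1, ant-1.3 and ant-1.4 were also below control at these doses, a match that any gene lower at both would share. The sperm list holds the numbered genes of the msp family beside spe, fer and gsp genes. How reads with several matches were treated is not given, so the msp genes need not be separate measurements. Gene by gene at 400 ng/g, 36 of 37 sperm, 10 of 30 germ-line and 13 of 17 oocyte markers had all libraries below control. At 10000 ng/g these counts were 35, 16 and 14. Of all genes tested, 12.2% did so at 400 ng/g and 18.3% at 10000 ng/g.

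In CPM summed over the list, sperm markers lay between 976.7 and 2101 in the control, between 245.4 and 661.1 at 400 ng/g, between 490.4 and 1170 at 2000 ng/g and between 398.8 and 775.9 at 10000 ng/g. The summed germ-line markers lay between 3102 and 3891 CPM in the control, between 2490 and 2932 at 400 ng/g, between 2654 and 3600.0 at 2000 ng/g and between 2503 and 2805 at 10000 ng/g. The 8 adult cuticle markers, collagen genes that come on late in the larva, summed to 1956 to 3758 CPM in the control, 610.5 to 1517 at 400 ng/g, 1413 to 2786 at 2000 ng/g and 1100 to 1673 at 10000 ng/g. The 12 neuron markers went the other way, with 947.8 to 991.6 CPM in the control, 1126 to 1270 at 400 ng/g, 923.3 to 1121 at 2000 ng/g and 1181 to 1231 at 10000 ng/g. The separation of the adult cuticle markers depended on the measure. Their mean log2 CPM minus the control mean overlapped the control (-0.73 to 0.92) at 400 (-2.32 to -0.38), 2000 (-0.99 to 0.08) and 10000 ng/g (-1.69 to -0.43). The part of these markers in the differences of the members was not tested. In whole worms, fewer cells of a type and less RNA per cell cannot be told apart.

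**Figure D3:**
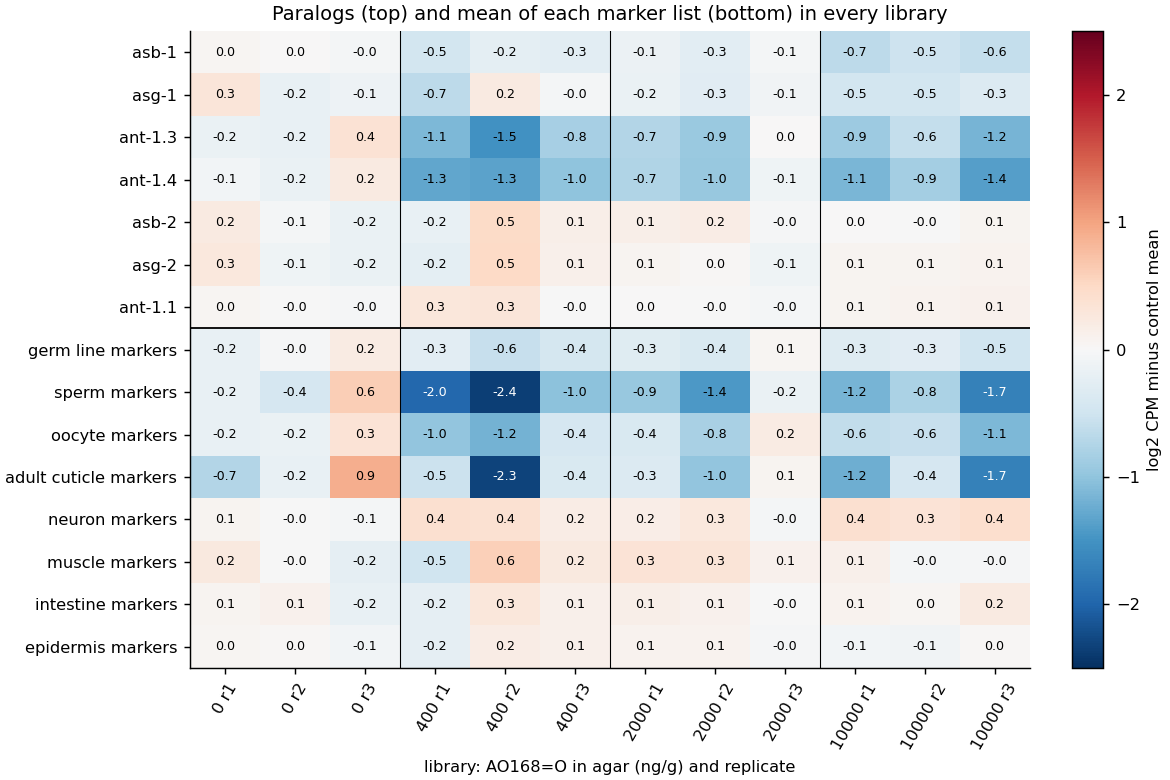
Log2 CPM minus the control mean (colour, from -2.5 in blue to 2.5 in red, and printed in each cell) for 7 of the genes and for the mean of each marker list (rows), in the 12 libraries ordered by dose in ng per g of agar and replicate, r1 to r3 (columns). The 3 lowest libraries of ant-1.3 and of ant-1.4 are those with the lowest sperm markers, replicates 1 and 2 at 400 ng/g and replicate 3 at 10000 ng/g, while the rows of asb-2 and asg-2 follow each other; ant-1.2 is left out for its low counts.

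Over the 12 libraries, which share the 4 groups and their depth, ant-1.3 and the sperm markers had a Pearson r of 0.983 and a Spearman rho of 0.993. With the group means taken out, r was 0.961 and rho 0.944, and without the 2 libraries farthest from the median of the markers r was 0.963. For ant-1.4 and the sperm markers r was 0.937 and rho 0.944, and 0.918 and 0.867 with the group means taken out. Both carriers were almost as close to the oocyte markers, with an r of 0.961 for ant-1.3 and 0.933 for ant-1.4. With the germ-line markers r was 0.936 and 0.894, and with the neuron markers -0.898 and -0.947, the largest by size for ant-1.4. With the adult cuticle markers it was 0.855 and 0.764, and 0.856 and 0.697 with the group means taken out. Between ant-1.3 and ant-1.4 themselves r was 0.968, and 0.954 with the group means taken out.

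For the subunit b gene asb-1, r was 0.577 with the germ-line markers, 0.603 with the sperm markers and 0.682 with the oocyte markers, and -0.04, 0.34 and 0.37 once the group means were taken out. With asb-2 its r was 0.118, and with asg-1 it was 0.709 (0.468 and 0.755 with the group means taken out). Its largest r by size among the marker lists was with neurons, at -0.887, as for ant-1.4. The differences between these values of r were not tested.

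The pair on chromosome X, asb-2 and asg-2, had an r of 0.944, and of 0.987 with the group means taken out. Each had its highest r among the marker lists with muscle, 0.914 for asb-2 and 0.83 for asg-2. With epidermis markers r was 0.841 and 0.728, and with intestine markers 0.799 and 0.78. Without the 2 libraries farthest from the median of each list, r with muscle was 0.876 for asb-2 and 0.595 for asg-2. That of asg-2 with intestine was then higher, at 0.657. With germ-line markers r over all libraries was negative, -0.662 and -0.655. For asg-1 the r with germ-line markers was 0.02 and with epidermis markers 0.718, or 0.426 without the 2 libraries farthest from the epidermis median. For ant-1.1 it was -0.779 with sperm markers and 0.706 with neuron markers.

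The genes most like each member were ranked by Pearson r of log2 CPM over the 12 libraries among 10496 genes with a mean of at least 5 CPM. For asb-1 they were nduf-2.2, for a 49 kDa subunit of complex I (r = 0.965), the histone H1 gene hil-5 (0.944) and rbm-3.1, for an RNA-binding domain protein (0.938). For asb-2 they were pdhb-1, for the beta subunit of pyruvate dehydrogenase E1 (0.987), the transketolase gene tkt-1 (0.986) and immt-1, for a subunit of the cristae-organising MICOS complex (0.981). For asg-1 they were ubxn-2 (0.979), the ubiquitin-conjugating enzyme gene ubc-20 (0.977) and the proteasome subunit gene rpt-6 (0.963). For asg-2 they were the cytochrome c oxidase gene cox-5B (0.967), the 14-3-3 gene ftt-2 (0.962) and the complex I gene nduf-7 (0.959).

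For ant-1.1 the closest genes were T26C12.1 (0.935), lias-1, for a mitochondrial lipoyl synthase (0.917), and F09B9.4 (0.917). For ant-1.3 they were T14G10.8 (0.992), alg-3, for an Argonaute protein known from spermatogenesis (0.991), and the kinase gene ttbk-2.2 (0.991). For ant-1.4 they were cbs-2, described as a putative cystathionine beta-synthase (0.982), the kinase gene Y38H8A.4 (0.98) and the phosphatase gene C34D4.2 (0.979). For ant-1.2, whose counts are too low for a reading, they were R12B2.2 (0.907), pha-1 (0.895) and tbc-18 (0.873).

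The rest of the ATP synthase was set beside the members. The 13 other subunit and inhibitor genes included Y82E9BR.3, for subunit c of the proton-driven ring and the most abundant of them (mean of 3660 FPKM), and the catalytic head genes atp-1 and atp-2. None of the 13 passed the edgeR threshold at 400, 2000 or 10000 ng/g, nor with DESeq2 at any of these doses, and 1, 0 and 1 of them had an unadjusted p under 0.05. Of all 16665 genes tested, 3084, 859 and 3426 had such a p. The log2 fold change was positive in all 13 at 400 ng/g (median 0.12), in 7 at 2000 ng/g (median 0.01) and in 2 at 10000 ng/g (median -0.04). Over all genes tested the medians were 0.05, -0.02 and -0.01. The gene mai-1, for an inhibitor of ATP hydrolysis by the enzyme, was named after its values were seen. It is the one of the 13 whose libraries were all above control at 400, 2000 and 10000 ng/g. Of all genes tested, 8.19%, 6.04% and 16% had all libraries above control at these doses, each dose taken alone. At 400 ng/g mai-1 had 50.9, 39.2 and 41.9 FPKM, against 32.9, 34.8 and 36.4 FPKM in the control. The log2 difference was 0.34 ± 0.119 (edgeR adjusted p = 0.132).

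The 26 other mitochondrial carrier genes had medians of 0.02, 0.01 and -0.12 at the 3 doses from low to high, and none passed with edgeR. In dose order, 5, 2 and 9 of them had an unadjusted edgeR p under 0.05, beside 3084, 859 and 3426 of all 16665 genes tested. DESeq2 called 4, 0 and 0, beside 8.89%, 0.0201% and 6.02% of genes with an adjusted p. The most abundant was the phosphate carrier gene F01G4.6, with a mean of 884.7 FPKM and a log2 fold change of 0.21 ± 0.122 at 400 ng/g (edgeR adjusted p = 0.417). At 400 ng/g, 5 of the 26 had all libraries below control, where 12.2% of all genes tested did. Among them, named after their values were seen, were C14C10.1 at -1.78 ± 0.413, Y43C5B.3 at -1.49 ± 0.371, C33F10.12 at -1.42 ± 0.309 and T05F1.8 at -1.28 ± 0.32 (edgeR adjusted p from 0.0523 to 0.0575). Of these, C14C10.1, C33F10.12 and T05F1.8 carry the same description of phosphate carrier as F01G4.6. In FPKM, C14C10.1 had 6.15, 2.57 and 8.61 at 400 ng/g, against 15.7, 14.6 and 29.0 in the control. Of the 26, 9 had all libraries below control at 10000 ng/g and 3 had them above, beside 18.3% and 16% of all genes tested.

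The deposited annotation gives the description of ADP/ATP translocase to 3 further genes of that list, which with the 4 ant genes make all 7 in the table. They were far less abundant than ant-1.1, with means of 26.6 FPKM for F25B4.7, 14.98 for C47E12.2 and 10.97 for R07E3.4. At 400 ng/g their log2 fold changes were 0.10 ± 0.0862, 0.13 ± 0.117 and 0.04 ± 0.136, with edgeR adjusted p from 0.593 to 0.928 and libraries that overlapped the control. Of the 7 genes with this description, ant-1.3 and ant-1.4 had all libraries below control at 400 ng/g, where 12.2% of all genes tested did. With control libraries at 0, ant-1.2 could not have lain below control.

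Of 55 nuclear genes of the respiratory chain and cytochrome c tested, none passed with edgeR at 400 or 2000 ng/g, where 5 and 0 had an unadjusted p under 0.05, DESeq2 called 2 and 0, and the medians were 0.09 and 0.01. Over all genes, 18.5% and 5.15% had such a p, and DESeq2 called 8.89% and 0.0201%. The 1 gene past the edgeR threshold at 10000 ng/g was nduf-2.2, on the low side, with a log2 fold change of -0.58 ± 0.0974. It is also a gene of the comparison pairs. Since the lists and pairs were chosen with earlier results known, this is a description and no p is given. The median over the list was then -0.06 with 40 of 55 negative. Without replicate 2 at 400 ng/g or replicate 3 at 2000 ng/g the count of genes past the threshold stayed at 1. Without replicate 1 at 400 ng/g it was 3, and without any one of the other 9 libraries it was 0. The most abundant gene of the list was cyc-2.1, for cytochrome c, with a mean of 1196 FPKM.

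**Figure D4:**
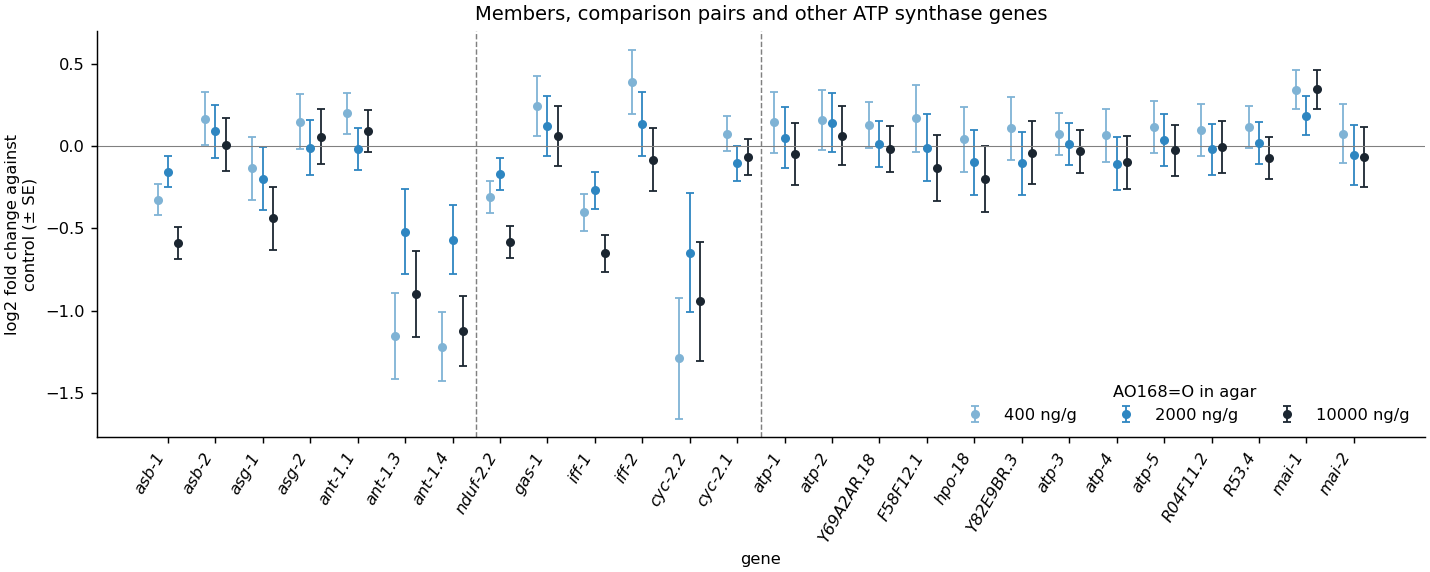
Log2 fold change against control (y axis, with bars of ± SE from the edgeR fit of all 12 libraries) of 7 of the paralogs, of 6 genes of 3 comparison pairs and of 13 other ATP synthase genes (x axis, split by dashed lines), at 400, 2000 and 10000 ng per g of agar in light blue, blue and black. The paralogs asb-1, asg-1, ant-1.3 and ant-1.4 lie below 0 at each dose. The ATP synthase genes other than mai-1 lie between -0.20 and 0.17, a range that also holds asb-1 at 2000 ng/g (-0.16) and asg-1 at 400 ng/g (-0.13).

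Other pairs with a copy known from the germ line and a copy used more widely, or with a rare and an abundant copy, were set beside the members as a description. The pairs were chosen with earlier results of these data known. Of their 6 genes, 2, nduf-2.2 among them, were past the edgeR threshold on the low side at 10000 ng/g, against 0.042% of all genes. Their ratios at that dose are therefore no independent parallel to the members. In the pair for the 49 kDa subunit of complex I, the log2 ratio of nduf-2.2 to gas-1 differed from control by -0.53 ± 0.275 at 400 ng/g, -0.31 ± 0.225 at 2000 ng/g and -0.66 ± 0.21 at 10000 ng/g, with overlap at 400 and 2000 ng/g. In the pair for translation factor eIF5A, that of iff-1, the germ-line copy, to iff-2, the somatic copy, differed by -0.77 ± 0.322, -0.42 ± 0.273 and -0.58 ± 0.174, with overlap at 2000 ng/g. In the cytochrome c pair, that of cyc-2.2 to cyc-2.1 differed by -1.4 ± 0.433, -0.65 ± 0.54 and -0.88 ± 0.356, with overlap at 2000 ng/g. The gene cyc-2.2 overlaps cubn-1 on the opposite strand, which had 216 to 750 counts per library against 147 to 768 for cyc-2.2. With the strand setting unknown, this ratio is uncertain. The gene gas-1 overlaps K09A9.6 on the opposite strand, which had 1336 to 3113 counts against 9822 to 15543 for gas-1.

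The ratio of the 2 rarer carriers to each other was examined after their values were seen. The log2 ratio of ant-1.3 to ant-1.4 averaged 0.33 at 400 ng/g, 0.32 at 2000 ng/g and 0.51 at 10000 ng/g, against 0.27 in the control. The libraries at 10000 ng/g had 0.51, 0.53 and 0.50, against 0.16, 0.24 and 0.42 in the control, so that these groups did not overlap.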

How the data were processed

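The authors deposited raw read counts per gene and FPKM for 12 poly(A) RNA libraries. The submitters' processing notes name HISAT2 2.2.1, CASAVA, DESeq2 1.42.0 and featureCounts 2.0.6, without settings. The sources used here state neither genome build, strand setting nor how reads with several matches were treated. Coordinates of 46926 of 46987 features equalled WBcel235 in Ensembl release 115. The deposited FPKM are scaled by DESeq2 size factors: their implied divisor was proportional to those factors, and was 0.866 to 1.11 times the total count.

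Counts were tested with edgeR 4.0.16 in R 4.3.3 (quasi-likelihood, TMM, filterByExpr, a mean per group over all 12 libraries, 16665 genes, two-sided, Benjamini-Hochberg threshold of 0.05). The SE was taken as the size of the log2 fold change over √F. The biological coefficient of variation was 24.1%. CPM use TMM library sizes, and log2 CPM a prior count of 2. Ratios of paralogs used counts + 0.5 per library. The steps were tested on simulated data.

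The members and all gene lists were chosen with earlier results of these data known, and lists were not tested as sets. By rule, named genes are the 8 members, the 3 genes with the highest r to each member, genes past the threshold and the most abundant gene of each list, and 3 comparison pairs. Outside it, mai-1 and 4 carriers were named after their values were seen, 3 further carriers by their description, atp-1 and atp-2 as examples, and genes that overlap a named one. Replicate numbers come from the titles. Deviations from group means of same-numbered libraries correlated at 0.14, 0.145 and 0.339 between 2000 ng/g and control, so these numbers were taken as pairs; a replicate block left the members called there at 0, and paralog ratios there also got a sign-flip test. Alternatives were other scaling factors, no filter, a replicate block, fits of only the groups compared, DESeq2 1.42.0, other pseudocounts, and leaving out each library.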

Additional observations from a re-analysis of the deposited data

How the results depend on the processing

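With 3 libraries a group, the calls near the threshold moved with the fit, and the cause was not tested. The members past the threshold at 400 ng/g were 2 with no low-count filter, 2 with the replicate block and 3 with DESeq2, against 0 in the edgeR fit reported. At 10000 ng/g, as a description of the comparison known when the members were chosen and not as a test of them, the counts were 0 with library size only, 2 with no filter, 0 with the replicate block, 2 in the fit of only the groups compared and 3 with DESeq2, against 1. Leaving out each library gave 0 to 2 members at 400 ng/g (2 without replicate 3 at 400 or at 2000 ng/g) and 0 to 2 at 10000 ng/g (2 without replicate 1 at 400 or replicate 3 at 2000 ng/g, and 0 without 9 of the 12 libraries). The other mitochondrial carriers past the threshold at 400 ng/g were 4 with no filter, 3 with the replicate block and 4 with DESeq2, against 0, and 0 to 4 when a library was left out (3 without replicate 3 at 400 ng/g and 4 without replicate 3 at 2000 ng/g). Respiratory chain genes past the threshold at 400 ng/g were 1 with no filter and 2 with DESeq2, against 0, and 0 to 2 when a library was left out (2 without replicate 3 at 2000 ng/g). At 10000 ng/g they were 0 with library size only, 0 with the replicate block, 3 in the fit of only the groups compared and 3 with DESeq2, against 1, and 0 to 3 when a library was left out. Genes called in all at 400 ng/g were 930 with no filter and 579 with the block, against 0, and at 10000 ng/g 16 with library size only, 12 with the block and 431 in the fit of only the groups compared, against 42. Leaving out a library gave 0 to 903 at 400 ng/g and 4 to 523 at 10000 ng/g.

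Replicate numbers were not taken as pairs in the comparisons of 400 and 10000 ng/g with control or of 2000 with 400 ng/g. There same-numbered libraries correlated at -0.471 to 0.231, and 1, 2 and 4 of 6 libraries were closest to their own number. For 2000 ng/g against control the count was also 4 of 6. This count thus does not set the pairing used apart from that of 2000 with 400 ng/g. The paired fit changed no call at 2000 ng/g. The log2 ratio of ant-1.2 to ant-1.1 at 400 ng/g was -0.0191 with FPKM + 1, against 2.09, and 0.1064 at 10000 ng/g, against 2.55, since its few counts vanish beside the pseudocount. The log2 fold change of asg-2 at 2000 ng/g was 0.0062 with RLE factors and with DESeq2, 0.0035 with library size only and 0.0016 in the fit of only the groups compared, against -0.0083. Between 2000 and 400 ng/g, asg-1 had 0.0038 with library size only, against -0.06, and ant-1.2 had -0.0239 with the replicate block, against 0.0432. Leaving out a library turned the sign of ant-1.1 at 2000 ng/g (-0.0378 to 0.025), asb-2 at 10000 ng/g (-0.0754 to 0.1568), asg-1 at 400 ng/g (-0.3155 to 0.0687), and asg-2 at 400 (-0.0332 to 0.3071), 2000 (-0.0882 to 0.1591) and 10000 ng/g (-0.0223 to 0.2311). Between 2000 and 400 ng/g it turned that of asb-2 (-0.2059 to 0.099), asg-1 (-0.2523 to 0.1276), asg-2 (-0.301 to 0.0364) and ant-1.2 (-1.1545 to 0.9566). None of these values passed the threshold. The members asb-1, ant-1.3 and ant-1.4 kept a negative sign against control at all 3 doses under every alternative run, and so did the ratios of the pairs asb-1 to asb-2, asg-1 to asg-2, ant-1.3 to ant-1.1 and ant-1.4 to ant-1.1. Counts of 0 to 17 per library leave ant-1.2 without a usable estimate.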
